A study of Mus musculus with 6 samples.

Results

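Transcripts of the circadian clock were examined in pancreatic islets, the clusters of hormone-secreting cells of the pancreas, from male mice aged 30 weeks. The 10 genes, Arntl, Nr1d1, Nr1d2, Per1, Per2, Per3, Cry2, Bhlhe40, Nfil3 and Tef, were taken by symbol from a deposited table of 18437 genes, and all 10 were among the 16042 genes that passed a filter on low values. The groups were 3 libraries from Sec16b-/- mice (knockout) and 3 libraries from Sec16b+/+ mice (wild type). Sec16b encodes a protein of the endoplasmic reticulum exit sites, from which vesicles leave for the Golgi, and islets of mutant mice were set beside those of wild type mice. The strategy behind the Sec16b allele, the number of mice per library and the time of day at which islets were taken were not given in the sources used here. The p-values therefore describe the spread among these libraries, which may be technical.

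In mammalian cells the clock is a feedback loop of transcription. Arntl (also called Bmal1) pairs with Clock and binds E-boxes in the genes of its own repressors, the Per and Cry proteins and the nuclear receptors Nr1d1 and Nr1d2 (Rev-erb alpha and beta). The Rev-erb receptors bind RORE sites and repress Arntl and Nfil3, Tef activates D-boxes that Nfil3 represses, and in mouse islets the beta cell clock is known to shape the timing of insulin release. Many of these transcripts rise and fall over the day in many tissues, with Arntl out of step with Per and Rev-erb transcripts.

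The start-site windows of 5 of the genes are printed to show letters of the elements that tie the loop together. The windows come from RefSeq on build GRCm38.p6, cover 250 bases before and 50 after an annotated start, read 5′ to 3′, and matched 8 of the 10 symbols, with Per2 and Bhlhe40 having no entry in the table used. Capitals mark the motif letters found: the RORE letters (ANTNGGTCA) in Arntl and, on the opposite strand, in Nfil3, an E′-box (CACGTT, also on the opposite strand) in Nr1d1, an E-box (CACGTG) in Per1 and 2 D-boxes (TTANGTAA) in Per3.

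Arntl (chr7:113207261-113207560, plus strand): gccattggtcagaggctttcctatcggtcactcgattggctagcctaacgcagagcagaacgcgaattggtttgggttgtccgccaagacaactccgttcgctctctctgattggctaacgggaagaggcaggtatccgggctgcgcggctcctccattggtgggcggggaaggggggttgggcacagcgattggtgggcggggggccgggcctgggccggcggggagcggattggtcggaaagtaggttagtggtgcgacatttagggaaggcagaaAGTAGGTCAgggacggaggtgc
Nfil3 (chr13:52980990-52981289, minus strand): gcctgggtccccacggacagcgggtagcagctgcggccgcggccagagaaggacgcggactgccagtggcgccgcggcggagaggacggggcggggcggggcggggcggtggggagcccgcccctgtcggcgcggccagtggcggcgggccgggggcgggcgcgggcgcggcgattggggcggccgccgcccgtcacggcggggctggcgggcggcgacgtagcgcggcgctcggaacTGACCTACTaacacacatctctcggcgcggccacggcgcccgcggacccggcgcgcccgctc
Nr1d1 (chr11:98775328-98775627, minus strand): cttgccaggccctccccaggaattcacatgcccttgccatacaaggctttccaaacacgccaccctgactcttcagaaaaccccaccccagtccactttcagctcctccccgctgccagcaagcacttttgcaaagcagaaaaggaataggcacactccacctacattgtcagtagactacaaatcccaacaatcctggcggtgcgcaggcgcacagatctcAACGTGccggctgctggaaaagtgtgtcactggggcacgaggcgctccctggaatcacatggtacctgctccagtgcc
Per1 (chr11:69098699-69098998, plus strand): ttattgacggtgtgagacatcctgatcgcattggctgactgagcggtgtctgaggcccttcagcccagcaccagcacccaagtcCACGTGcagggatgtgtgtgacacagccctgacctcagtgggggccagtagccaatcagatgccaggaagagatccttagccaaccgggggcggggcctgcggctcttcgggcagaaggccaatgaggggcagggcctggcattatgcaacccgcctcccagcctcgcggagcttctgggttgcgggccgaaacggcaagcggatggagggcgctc
Per3 (chr4:151044616-151044915, minus strand): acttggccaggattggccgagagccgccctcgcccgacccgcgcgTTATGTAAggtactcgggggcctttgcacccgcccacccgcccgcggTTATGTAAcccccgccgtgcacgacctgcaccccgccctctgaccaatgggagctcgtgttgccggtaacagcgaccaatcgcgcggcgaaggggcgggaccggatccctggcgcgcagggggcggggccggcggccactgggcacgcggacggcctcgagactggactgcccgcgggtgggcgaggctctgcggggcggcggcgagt

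Across all 32851 promoter windows of the RefSeq table, the RORE letters stood in 2.24%, the D-box in 2.32%, the E-box in 7.15%, the E′-box in 4.68% and the cyclic AMP response element TGACGTCA in 1.79%, each searched on both strands. In the 11 windows of the 8 clock genes there were 9 matches in 7 genes, and none overlapped another. The RORE of Arntl lay at bases 279 to 287 of the second of its 2 windows, that of Nfil3 at bases 239 to 247, and the D-boxes of Per3 at bases 46 to 53 and 93 to 100. Both windows of Tef held an E-box, at bases 124 to 129 and 113 to 118, and that of Cry2 held an E′-box at bases 85 to 90. The window of Nr1d2 held none of these 5 letter patterns. A match is a run of letters, and binding was not measured here.

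The 6 libraries held between 22071895 and 26806787 recovered reads. Sec16b itself had normalized values of 553, 433 and 750 in knockout libraries and 1655, 773 and 1786 in wild type libraries. The hormone genes that define islets were abundant in every library, with Ins2 between 1581331 and 2192704 in knockout and between 1737105 and 2384366 in wild type libraries. The glucagon gene Gcg varied more, between 223263 and 635081 in knockout and between 157662 and 344316 in wild type libraries. Acinar cells, the enzyme-secreting cells around the islets, contributed unequally, and the 12 acinar markers took 11.3%, 5.28% and 0.521% of all values in knockout replicates 1, 2 and 3 and 3.84%, 0.810% and 2.37% in wild type replicates 1, 2 and 3. Fewer cells of a type and less RNA per cell cannot be told apart in such bulk samples.

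Most of the clock transcripts were measured at higher mean levels in the knockout islets, but the libraries of the genotypes overlapped for every one of the 10 genes and none passed the test. Limma's moderated test on log2(value + 1), with Benjamini-Hochberg adjustment over all genes, called 0 of the 10 genes, where it called 0% of the 16042 genes tested. At an unadjusted p under 0.05 it had 2 of the 10, Nr1d1 and Nfil3, where 3.08% of all tested genes lay under that value. The mean log2 value was higher in knockout for 9 of the 10 genes, against 49.4% of all tested genes, and the median log2 fold change of the 10 was 0.32, against −0.0030 over all tested genes. Complete separation of the 3 knockout from the 3 wild type libraries was seen for 0 of the 10 genes and for 9.08% of all tested genes. Run on recovered reads, edgeR's quasi-likelihood test called 0 of the 10 and 0% of all tested genes. At an unadjusted p under 0.05 edgeR had 3 of the 10 and 3.17% of all tested genes. The Wald test of DESeq2 gave an adjusted p to 9 of the 10, all but Arntl, and called 0 of those 9, where it called 0.114% of the 10555 genes that received one. At an unadjusted p under 0.05 DESeq2 had 4 of the 10, and 3.28% of all genes with a p.

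**Figure D1:**
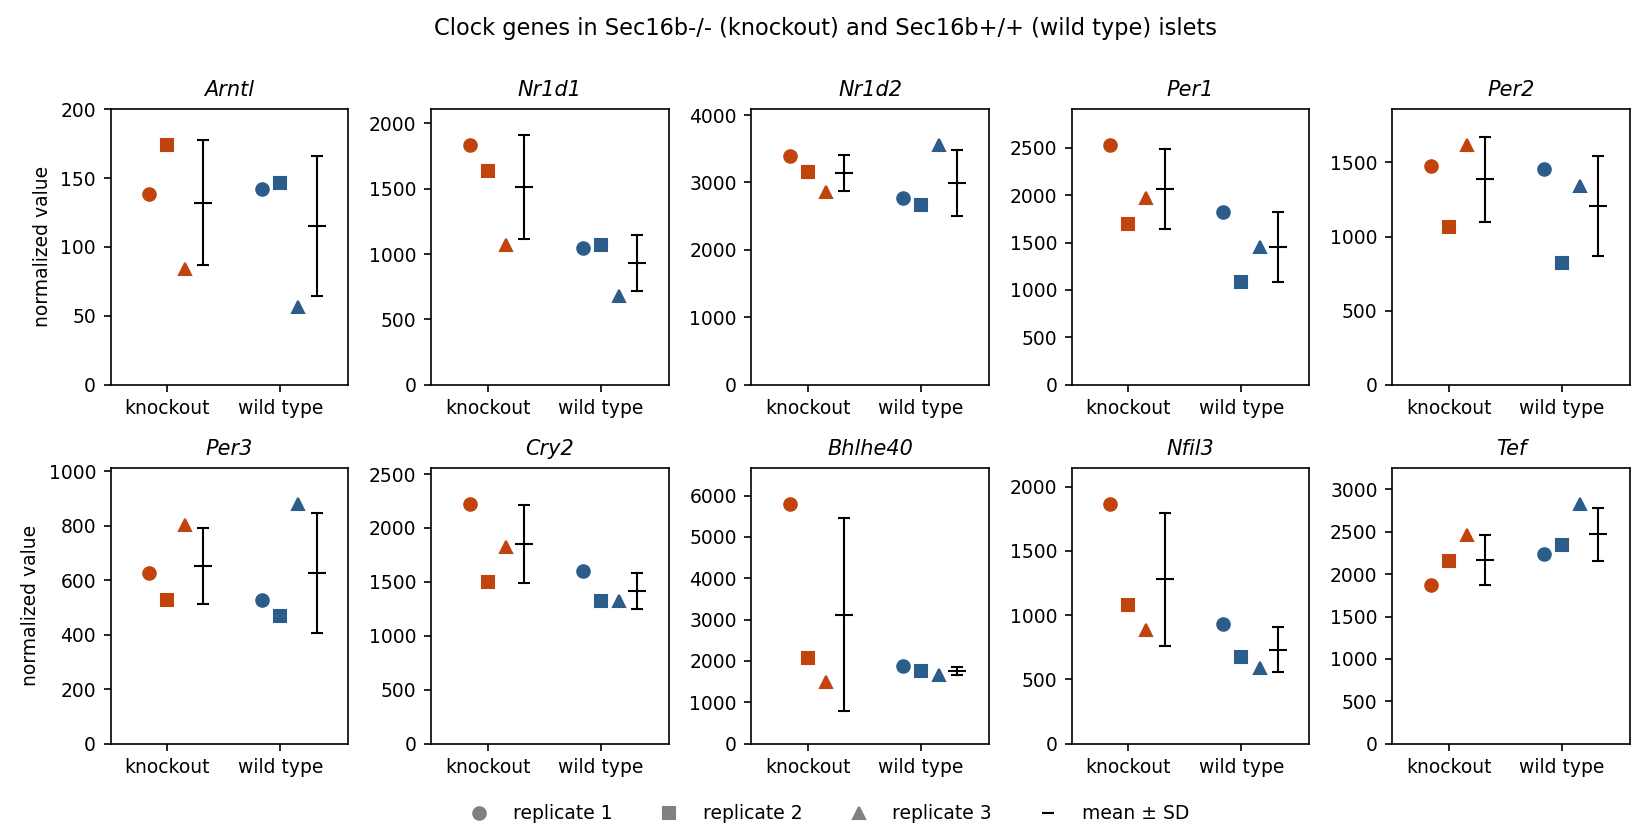
Normalized value of each clock gene (vertical axis, starting at 0) in the 3 knockout libraries (red) and the 3 wild type libraries (blue). Marker shape gives the replicate number and the black bar the mean ± SD. The genotypes overlap in all 10 panels, most narrowly for Nr1d1 (1068 in the lowest knockout library, 1069 in the highest wild type library), and 1 knockout library of Bhlhe40 lies far above the other 5.

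The activator Arntl was low in 1 library of each genotype. Its normalized values were 139, 174 and 83.7 in knockout replicates 1, 2 and 3, against 142, 146 and 56.3 in wild type replicates 1, 2 and 3. The third library of either genotype was the lowest of its group, and the groups overlapped widely. On the log2 scale the fold change was 0.26 (SE 0.45, limma adjusted p = 0.993), with a 95% interval from −0.81 to 1.33. Without wild type replicate 3 the log2 fold change was −0.19, so its sign rested on that library.

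Nr1d1, the Rev-erb alpha repressor, had a mean of 1513 ± 398 (SD, n = 3) in knockout libraries and 932 ± 217 (SD, n = 3) in wild type libraries. Single values were 1837, 1634 and 1068 in knockout replicates 1, 2 and 3, and 1046, 1069 and 681 in wild type replicates 1, 2 and 3. Replicates 1 and 2 of the knockout exceeded all 3 wild type libraries, and knockout replicate 3 fell between the wild type values. The log2 fold change was 0.69 (SE 0.25), or 1.61-fold, with an unadjusted p of 0.0308 in limma and an adjusted p of 0.993. The two-sided exact permutation test of Nr1d1 alone gave p = 0.2, where 3 libraries against 3 cannot go below 0.1. In GENCODE M21 the exons of Nr1d1 share 263 bases, 8.55% of their length, with Thra, the thyroid hormone receptor alpha gene on the opposite strand. Thra, named after its values were seen, was at 595, 926 and 676 in knockout libraries and 562, 768 and 623 in wild type libraries, and without strand information reads in the shared stretch could belong to either gene.

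Nr1d2, the Rev-erb beta repressor, was nearly level between genotypes. It had 3399, 3160 and 2857 in knockout replicates 1, 2 and 3, against 2773, 2663 and 3560 in wild type replicates 1, 2 and 3. The highest value of all was in wild type replicate 3, the library where Nr1d1 was lowest. This gave a log2 fold change of 0.07 (SE 0.14), with a 95% interval from −0.25 to 0.40. The log2 fold change of its paralog Nr1d1, 0.69, lay above that interval, but the 95% interval of Nr1d1, from 0.086 to 1.30, overlapped it. The difference between the paralogs was not tested.

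The Period genes encode the repressors that carry the negative arm of the loop together with the cryptochromes. Per1, the member that responds fastest to stimuli in many tissues, was at 2534, 1701 and 1969 in knockout replicates 1, 2 and 3 and at 1826, 1085 and 1455 in wild type replicates 1, 2 and 3. Replicates 1 and 3 of the knockout exceeded all 3 wild type libraries and knockout replicate 2 lay below wild type replicate 1. The log2 fold change of Per1 was 0.52 (SE 0.22), or 1.43-fold, with an unadjusted p of 0.0530 in limma, and it was 0.32 without wild type replicate 2.

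Per2 showed a smaller difference of means. It was at 1474, 1063 and 1620 in knockout libraries and 1456, 823 and 1341 in wild type libraries, replicates 1, 2 and 3 in each case. Its log2 fold change was 0.22 (SE 0.25), with a 95% interval from −0.38 to 0.82. The second library was the lowest of either genotype for Per1 and Per2 alike.

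Per3, the period paralog that the core loop can do without in mice, was at 626, 527 and 802 in knockout libraries and 529, 471 and 881 in wild type libraries, in replicate order. The third library was the highest of either genotype. Its log2 fold change of 0.09 (SE 0.27) was well inside the spread between libraries.

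Cry2, a cryptochrome that binds and inhibits the Arntl and Clock pair, was at 2223, 1503 and 1828 in knockout replicates 1, 2 and 3. Wild type replicates 1, 2 and 3 had 1604, 1324 and 1320. Replicates 1 and 3 of the knockout exceeded all 3 wild type libraries, and knockout replicate 2 lay below wild type replicate 1 alone. Cry2 thus had a log2 fold change of 0.37 (SE 0.16), with an unadjusted p of 0.0536 in limma, and one of 0.23 without knockout replicate 1.

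Bhlhe40 (Dec1), an E-box repressor that many stimuli induce, had 5801, 2062 and 1493 in knockout replicates 1, 2 and 3, against 1872, 1750 and 1663 in wild type replicates 1, 2 and 3. A single library, knockout replicate 1, carried the difference of means, and knockout replicate 3 was the lowest of all 6. Its log2 fold change was 0.57 (SE 0.46), and without knockout replicate 1 it was −0.0039.

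Among the output factors, Nfil3 (E4bp4), the D-box repressor, had a mean of 1278 ± 519 (SD, n = 3) in knockout libraries and 732 ± 177 (SD, n = 3) in wild type libraries. Single values were 1866, 1082 and 886 in knockout replicates 1, 2 and 3, and 931, 672 and 592 in wild type replicates 1, 2 and 3. Replicates 1 and 2 of the knockout exceeded all 3 wild type libraries, and knockout replicate 3 lay just below wild type replicate 1. The log2 fold change was 0.76 (SE 0.30), or 1.69-fold, the largest of the 10 in limma, with an unadjusted p of 0.0394 in limma and an adjusted p of 0.993. Without knockout replicate 1 the log2 fold change was 0.45.

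Tef, the D-box activator, was the only one of the 10 with a lower mean in knockout libraries. Its values were 1870, 2156 and 2467 in knockout replicates 1, 2 and 3, against 2232, 2343 and 2829 in wild type replicates 1, 2 and 3. Replicates 1 and 2 of the knockout were lower than all 3 wild type libraries. Tef had a log2 fold change of −0.19 (SE 0.14, limma adjusted p = 0.993), with −0.29 when knockout replicate 3 was left out and −0.089 when wild type replicate 3 was left out.

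**Figure D2:**
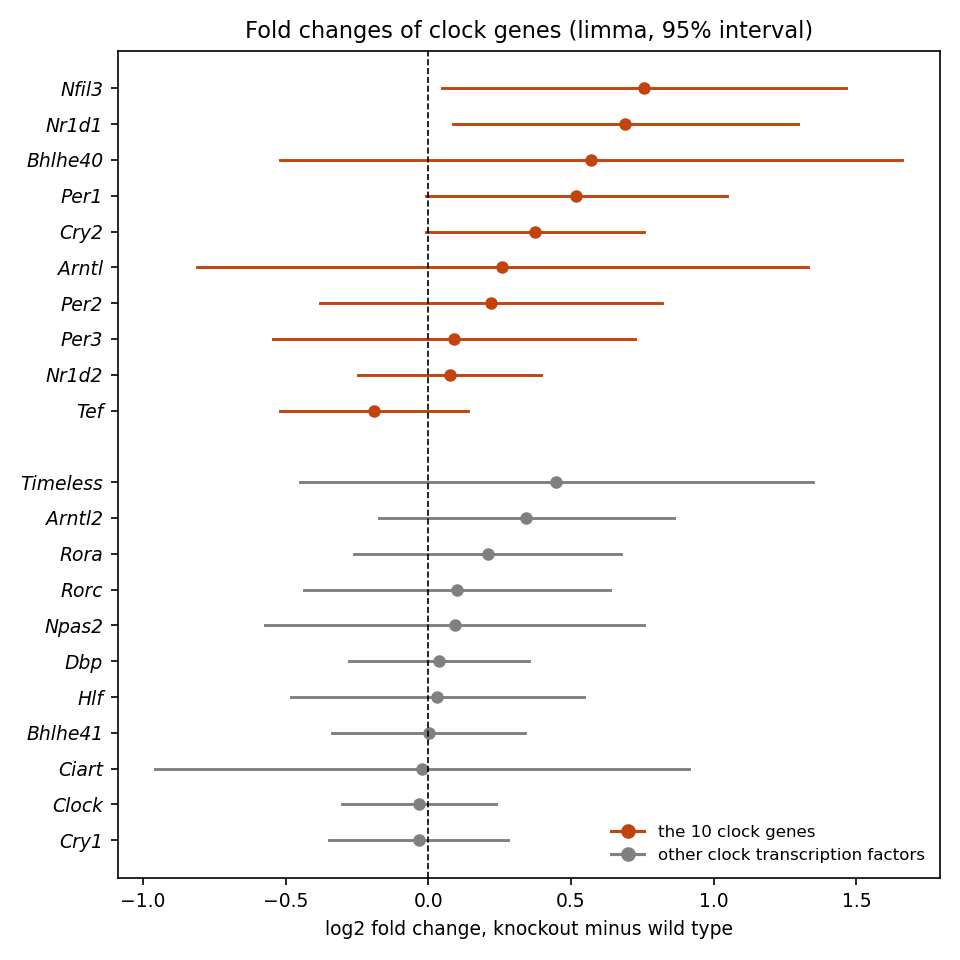
Log2 fold change, knockout minus wild type, with its 95% interval from limma, for the 10 clock genes (red) and 11 further listed clock factors (grey). Nfil3 (0.76) and Nr1d1 (0.69) are the 2 genes whose interval lies above 0 before adjustment, and Tef (−0.19) is the red point left of 0.

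The further factors listed for the clock were closer to level by their median, though Timeless had a log2 fold change of 0.45. Of 12 listed, 11 passed the filter, Rorb being too low, and 0 passed limma's test with 0 at an unadjusted p under 0.05. The log2 fold change was above 0 for 8 and below 0 for 3, and their median log2 fold change was 0.04. Clock, the partner of Arntl, was at 3212, 3739 and 3623 in knockout libraries and 3177, 3939 and 3719 in wild type libraries, a log2 fold change of −0.03 (SE 0.11). Cry1, the other cryptochrome, had −0.03 (SE 0.13), and Dbp, a D-box activator and paralog of Tef, had 0.04 (SE 0.13).

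None of the other factors named here passed limma's test. For Npas2, which can stand in for Clock, the log2 fold change came to 0.09 (SE 0.28), and Rora, which activates through the RORE sites that Rev-erb receptors occupy, had 0.21 (SE 0.20). Among those with a log2 fold change above 0, the 3 of smallest p were Arntl2, an Arntl paralog (0.34, SE 0.22), Timeless (0.45, SE 0.38) and Rora. Arntl2 was the 1 of the 11 tested genes of this list whose genotypes did not overlap, a share near the 9.08% of all tested genes, at 95.7, 80.6 and 81.7 in knockout and 61.1, 66.8 and 74.7 in wild type libraries. Those with a log2 fold change below 0 were Clock, Cry1 and Ciart, a repressor of the Arntl and Clock pair (−0.02, SE 0.39), and Ciart had the higher mean of unlogged values in knockout libraries (251, against 232 in wild type).

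The kinases, ligases and cofactors that modify clock proteins had log2 fold changes near 0. All 14 passed the filter, 7 with a log2 fold change above 0 and 7 below, and 0 passed limma's test or lay under an unadjusted p of 0.05. Their median log2 fold change was 0.02, and single values ran from −0.13 to 0.18. Csnk1d, a casein kinase that phosphorylates Per proteins, was at 4406, 3935 and 4319 in knockout libraries and 4549, 4423 and 4277 in wild type libraries. Below 0, those of smallest p were Csnk2b (−0.12, SE 0.09), Nono (−0.13, SE 0.12) and Csnk2a1 (−0.09, SE 0.09). Genes above 0 included Sirt1 (0.14, SE 0.13) and Btrc, which marks Per proteins for degradation (0.08, SE 0.13).

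The 10 genes varied more between libraries of 1 genotype than most genes did. Their median residual SD within genotype was 0.39 on the log2 scale, against 0.24 for all tested genes and 0.15 for the 6635 tested genes with a mean value of 500 to 5000, a range that held 9 of the 10. Bhlhe40 (0.73) and Arntl (0.67) had the largest residual SD and Nr1d2 (0.18) and Tef (0.19) the smallest, and 7 of the 10 lay above the median of all tested genes. Between the highest and the lowest of the 6 libraries the value differed 3.89-fold for Bhlhe40, 3.15-fold for Nfil3, 3.10-fold for Arntl and 2.70-fold for Nr1d1, but 1.34-fold for Nr1d2. Within wild type libraries alone Arntl differed 2.60-fold and Bhlhe40 1.13-fold. Within knockout libraries the same genes differed 2.08-fold and 3.89-fold.

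Per kilobase of exon in GENCODE M21, Arntl was the least abundant of the 10, at a mean normalized value of 17.6 in knockout and 15.3 in wild type libraries. Per3 followed at 67.8 in knockout and 65.3 in wild type libraries. The other 8 lay between 237 (Per2) and 663 (Bhlhe40) in knockout libraries and between 206 (Per2) and 554 (Nr1d2) in wild type libraries. The annotation used by the authors for counting was not given in the sources used here, so these per-length levels are approximate.

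The genes fell into different patterns over the 6 libraries. On a log2 scale centred on each gene's own mean, wild type replicate 3 combined the lowest Arntl (−1.02), Nr1d1 (−0.77) and Nfil3 (−0.66) with the highest Per3 (0.50), Tef (0.30) and Nr1d2 (0.22). Knockout replicate 3 also had the lowest Arntl (−0.46), Nr1d1 (−0.12) and Nfil3 (−0.08) of its genotype and the highest Per3 (0.37), Tef (0.10) and Per2 (0.36). The libraries differed in Nr1d2, which in knockout replicate 3 was the lowest of its genotype (−0.095). Wild type replicate 2 had the lowest Per1 (−0.65), Per2 (−0.62), Per3 (−0.40) and Nr1d2 (−0.20) of all 6 libraries, and knockout replicate 2 the lowest Per1, Per2, Per3 and Cry2 of its genotype. Knockout replicate 1 had the highest value of all 6 libraries for 5 of the 10 genes, Bhlhe40, Nfil3, Nr1d1, Per1 and Cry2, and the lowest for Tef (−0.30). The share of all tested genes that were highest in that library was not counted.

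**Figure D3:**
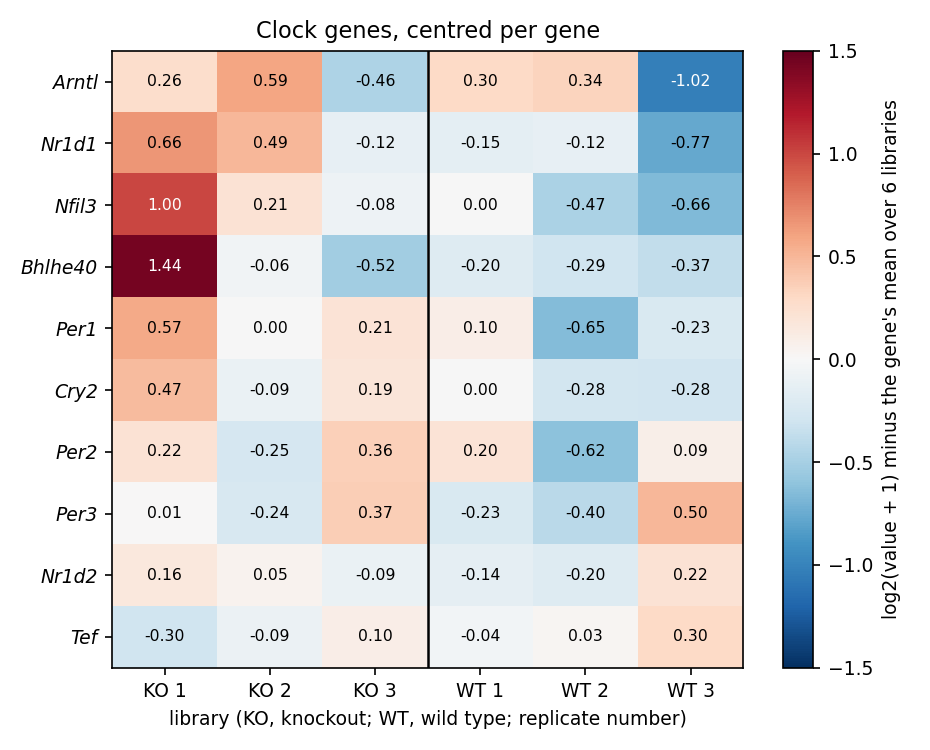
Each cell gives log2(value + 1) of a clock gene in 1 library minus that gene's mean over the 6 libraries, with knockout libraries left of the black line and wild type libraries right of it. Wild type replicate 3 pairs low Arntl (−1.02) and Nr1d1 (−0.77) with high Per3 (0.50), and knockout replicate 1 has the highest Bhlhe40 (1.44) and the lowest Tef (−0.30).

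Immediate early genes, which respond within minutes to stimuli that include tissue handling, differed between the same libraries. All 23 of that list were tested and 23 had a log2 fold change above 0, against 49.4% of all tested genes. In limma 0 passed the test and 5 lay under an unadjusted p of 0.05, against 3.08% of all tested genes. The genotypes were separated for 5 of the 23, against 9.08% of all tested genes. The median log2 fold change of the 23 genes was 0.67. Their summed value was 75680, 51942 and 37077 in knockout replicates 1, 2 and 3 and 37103, 29244 and 31469 in wild type replicates 1, 2 and 3. Those of smallest p were Fosb (1.48, SE 0.42), Fosl2 (0.63, SE 0.18) and Junb (0.92, SE 0.30), all subunits of AP-1. The mean log2 level of the list put the libraries in the order knockout replicate 1 (10.8), knockout replicate 2 (10.3), wild type replicate 1 (9.89), knockout replicate 3 (9.55), wild type replicate 2 (9.39) and wild type replicate 3 (9.23). Nfil3 put all 6 libraries in that same order, and none of the other clock genes of the 10 did so. Arntl was highest in knockout replicate 2, Per2 in knockout replicate 3 and Per3 in wild type replicate 3, and Bhlhe40 was lowest in knockout replicate 3. How many of all tested genes share this order was not counted.

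With the immediate early level as a covariate, the limma log2 fold change of Nfil3 was 0.15 (SE 0.16, adjusted p = 0.914). All 23 genes of that list had a log2 fold change above 0, so the covariate was partly aligned with genotype. With 6 libraries this fit cannot tell the immediate early level and genotype apart, and a changed value under it shows no cause. Under the same covariate Nr1d1 had 0.23 (SE 0.21), Per1 0.26 (SE 0.26) and Cry2 0.20 (SE 0.19). The values of Bhlhe40 (−0.29, SE 0.34) and Arntl (−0.32, SE 0.50) were then below 0, and Tef (0.049, SE 0.12) was above it. Per2 stayed at 0.22 (SE 0.35), Nr1d2 had 0.03 (SE 0.18), and Per3 was further from 0 than without the covariate, at 0.38 (SE 0.32). With the acinar level as covariate instead, Nfil3 had 0.60 (SE 0.21), Nr1d1 0.59 (SE 0.23) and Per1 0.44 (SE 0.21). Over the limma alternatives, the lowest adjusted p of Nfil3 and of Nr1d1 was 0.703, without knockout replicate 3.

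**Figure D4:**
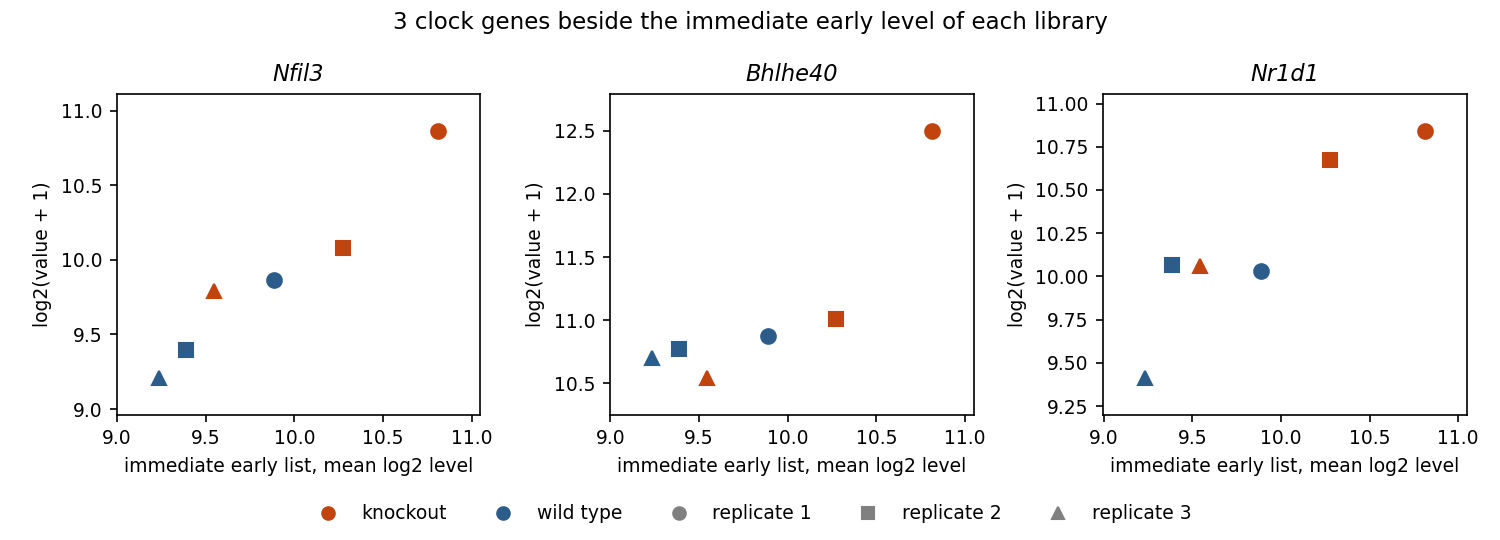
Log2(value + 1) of Nfil3, Bhlhe40 and Nr1d1 (vertical axis) against the mean log2 level of the 23 immediate early genes (horizontal axis) in each of the 6 libraries, knockout in red and wild type in blue. Knockout replicates 1 and 2 have the highest immediate early levels (10.8 and 10.3) and the highest Nfil3, Bhlhe40 and Nr1d1. The other clock genes are not plotted, and Per2 and Per3 are highest in other libraries.

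Glucocorticoids, adrenal hormones that reset peripheral clocks, act on a further set of genes. Of 10 listed, 9 had a log2 fold change above 0 and 1 below, where 49.4% of all tested genes were above 0. In limma 0 passed the test and 1 lay under an unadjusted p of 0.05, against 3.08% of all tested genes. The genotypes were separated for 1 of the 10, against 9.08% of all tested genes. The median log2 fold change of the 10 was 0.14. Tsc22d3 (Gilz), picked after its values were seen as a direct glucocorticoid receptor target, was at 613, 569 and 725 in knockout libraries and 692, 621 and 562 in wild type libraries. Above 0, those of smallest p were Errfi1, an inhibitor of the EGF receptor (0.82, SE 0.19), Zbtb16 (0.98, SE 0.66) and Mt2, a metallothionein (0.41, SE 0.30). Mt1, another metallothionein, was the 1 below 0 (−0.08, SE 0.24).

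Cells other than endocrine cells also carry a clock, and their markers moved between libraries. The 12 acinar markers had summed values between 114613 and 3060409 in knockout libraries and between 181814 and 869513 in wild type libraries. The summed lymphocyte markers lay between 7158 and 143958 in knockout libraries and between 258 and 22234 in wild type libraries. Knockout replicate 1, the library with the highest values of 5 clock genes, had the highest acinar and lymphocyte sums of all. By mean log2 level, however, the lymphocyte markers were highest in wild type replicate 1 (10.4, against 10.1 in knockout replicate 1). The endothelial sum of knockout replicate 1 (10709) was also the highest of the 6. As a share of all values it was 0.0395%, below the 0.0442% of wild type replicate 2. Its macrophage (4826) and stellate (1854) sums lay within the range of the others. No gene of the deposited table was at 0 in any library, so a nonzero marker value does not by itself show a cell type. Of 11 lymphocyte markers listed, 7 were in the table. The part of these cells in the clock values was not tested beyond the acinar covariate.

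The genes whose pattern over the 6 libraries lay nearest to that of Arntl, by the root mean square difference of centred log2 values, were Nexmif (0.12), Galnt13 (0.12) and Tox2 (0.15). Nexmif was at 81.0, 82.4 and 50.8 in knockout libraries and 72.2, 77.5 and 31.7 in wild type libraries. Nearest to Nr1d1 were Adam23 (0.11), Tmie (0.11) and Calcrl (0.13). Adam23 was at 164, 167 and 118 in knockout libraries and 109, 108 and 77.4 in wild type libraries. With 6 libraries and 16042 genes some genes lie this near by number alone, and the likeness is a description.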

How the data were processed

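RNA of islets from 3 Sec16b-/- and 3 Sec16b+/+ libraries was sequenced; groups and replicate numbers come from the sample titles. The aligner was HISAT2, per the submitters' processing notes. Version, counting tool, genome build and strandedness were not given in the sources used here, so overlapping genes could share reads. The deposited values are signal values, gene counts that the authors divided by 1 size factor per library. In each library 100% of values were whole multiples of 1 step (0.879 to 1.23) within 0.01 reads, and each listed gene had at least 1 read in every library.

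The filter kept the 16042 genes that reached a value of 10 in 3 or more libraries and dropped 2395. Limma 3.58.1 in R 4.3.3 fitted log2(value + 1), knockout minus wild type, using a variance trend over mean level. P-values were two-sided and adjusted over all tested genes by Benjamini-Hochberg at 0.05, and fold changes on this scale understate those of low genes. The count tests edgeR 4.0.16 and DESeq2 1.42.0 served as alternatives on the recovered reads. DESeq2 was run on all 18437 genes with its own filters, which left 7882 adjusted p-values undefined and 10555 genes with one. The limma fit without the replicate block was tested on simulated data with known fold changes. For the fit with the block only false calls were counted, and the simulated data held no replicate effect, so the block itself was not tested. The edgeR and DESeq2 fits were not tested in that way. Within genotypes the chi-square of library pairs was far from sampling noise, so no library was counted as a duplicate.

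The members and lists were chosen with earlier results of these data known. Named are the 10 genes, Sec16b, 5 fixed clock factors, up to 3 genes per direction of smallest p in each clock or stimulus list, the 3 nearest patterns to Arntl and Nr1d1 (predicted genes left out), and the hormone genes. Csnk1d was added as an example after its values were seen. One gene that this rule names is not reported here. A longer RORE pattern was searched first and matched Arntl alone. All 10 symbols matched GENCODE M21 or RefSeq names.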

Additional observations from a re-analysis of the deposited data

How the results depend on the processing

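Limma called 0 of the 10 clock genes under each of its alternatives (pseudocounts, filter, TMM scaling, block, covariates and libraries left out), as did edgeR and DESeq2 in the 1 unblocked fit run with each, where DESeq2 gave Arntl no adjusted p. Likewise 0 of the other listed clock factors passed in any fit. Over all genes, DESeq2 called 12 where limma called 0. The number of clock genes at an unadjusted p under 0.05, 2 in limma, was 4 with TMM scaling (481 of the 16042 genes). It was 4 with DESeq2 (3.28% of all genes with a p) and 0 with the immediate early level as covariate (844 of the 16042 genes). With single libraries left out, this number was 0 without knockout replicate 1 (2.09% of all tested genes) or wild type replicate 3 (2.75%). It was 1 without wild type replicate 2 (3.50%) and 4 without wild type replicate 1 (4.46%). Without knockout replicate 2 (2.36%) or 3 (7.03%) it was 2. The count of genes with separated genotypes, 0 with all libraries, ran from 0 to 4. It was 0 with knockout replicate 1 left out (16.6% of all tested genes), 3 with knockout replicate 2 (15.7%) or wild type replicate 1 (20.9%), 4 with knockout replicate 3 (25.1%) and 1 with wild type replicate 2 (17.7%) or 3 (18.2%). The causes were not tested, apart from the smaller number of libraries.

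Of 170 single-gene values over 17 alternatives, 157 kept their direction and their side of the threshold, and 10 turned their sign. With the immediate early covariate these were Arntl (−0.32), Bhlhe40 (−0.29) and Tef (0.049). With single libraries left out, Arntl ran from −0.19 (wild type replicate 3) to 0.55, Bhlhe40 from −0.0039 (knockout replicate 1) to 0.97, and Nr1d2 from −0.0051 (wild type replicate 2) to 0.20. Per2 ran from −0.035 (wild type replicate 2) to 0.40. Per3 ran from −0.089 (wild type replicate 2) to 0.36, with −0.070 and −0.0040 when knockout replicate 3 or wild type replicate 1 was left out. Nr1d1, Per1, Cry2 and Nfil3 kept a positive sign throughout.

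Same-numbered libraries deviated together over 16042 genes for number 1 (correlation 0.43) and number 3 (0.365) but not for number 2 (0.004), so the numbers were not taken to pair the samples, and knockout replicate 2 correlated best with wild type replicate 1 (0.034). With the replicate block limma called 0 of the 10 clock genes, with 4 at an unadjusted p under 0.05 (Nr1d1, Per1, Cry2 and Nfil3), where 5.39% of all tested genes lay under that value. EdgeR with the block, chosen after seeing the data, called 0 of the 10. It had 4 at an unadjusted p under 0.05, where 5.20% of all tested genes lay under that value. DESeq2 with the block, likewise added, called 61 genes in all (0.401%), 3 of them clock genes: Nr1d1 (adjusted p = 0.000773), Nfil3 (adjusted p = 0.00242) and Per1 (adjusted p = 0.0339). Their log2 fold changes under that fit were 0.69, 0.76 and 0.52. With 3 libraries a genotype, limma's SE on the log2 scale had a median of 0.20 over all tested genes.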
